A study of Homo sapiens with 30 samples.

Results

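Ribosomal protein genes were followed through 30 RNA libraries of human cells that make a tagged stress granule protein. Members were taken by symbol from the table of counts: every row named as a protein of the cytosolic large (RPL) or small (RPS) ribosomal subunit, with RPLP0, RPLP1, RPLP2 and RPSA added and pseudogenes left out. The rule used no measured value. It found 84 members of 60664 genes in the table, 52 of the large and 32 of the small subunit, and 7 of them are paralogs (RPL3L, RPL7L1, RPL10L, RPL22L1, RPL26L1, RPL39L and RPS27L).

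A cytosolic ribosome is built from ribosomal RNA and one copy of nearly every ribosomal protein. The large subunit joins amino acids and the small subunit reads the mRNA. The mRNAs of these proteins are short, abundant and mostly begin with a C followed by a run of C and T, the 5′ terminal oligopyrimidine (TOP) tract, through which their translation is switched as a group by growth and stress signals. TIA1, the protein tagged in these cells, is known to act on TOP mRNAs and to help assemble stress granules, the RNA-protein bodies that form when translation is blocked.

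The cells are HEK293, a widely used line from human embryonic kidney. In a pair of lines made from its Flp-In T-REx version, tetracycline switches on GFP fused to TIA1a. The fused protein is wild-type in one of them (WT), while in its counterpart it has the mutation of Welander distal myopathy (WDM). Cytosol was sequenced from 6 groups, WT and WDM cells left untreated, given tetracycline, or given tetracycline and then 0.5 mM sodium arsenite, an oxidative stressor, for 60 min. The granule fraction, a high-speed pellet captured through the GFP tag and described as granule cores, was sequenced from 4 groups, WT and WDM cells with tetracycline alone and with tetracycline and arsenite. All groups had 3 libraries, and all granule groups and their cytosol counterparts share tetracycline. Each genotype is represented by 1 engineered line, so a difference between lines cannot be told apart from one between any pair of derived lines. The labels do not say whether the replicates came from separate cultures, so p-values measure only the spread between these libraries, which may be technical.

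Library totals ran from 5906167 to 27419145 counts, and a count of 0 allows up to 3 counts, or 0.109 to 0.508 CPM (counts scaled to a common library size). These floors cover counting error only. The epithelial and HEK293 markers KRT8, KRT18, CDH2, VIM, NEFL and EPCAM were at 17.1 CPM or more in every library, PAX2 and CDH1 were low, and NEFM was at or near 0. Of the markers of other cell types, HBB was at 0 throughout, COL1A1 reached 6.27 CPM and the rest stayed at or under 1.02 CPM. TIA1 itself had 3 counts over all libraries, under the floor, so the induction of the transgene was not detectable in this table and does not check the labels. NEAT1, a nuclear RNA, was at 46.7 to 266 CPM in cytosol and 1377 to 2623 CPM in the granule fraction. MALAT1, another nuclear RNA, was at 144 to 564 CPM in cytosol and 403 to 992 CPM in the granule fraction, ranges that overlap. Their part in the results was not tested.

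Of the 84 members, 78 had enough counts to be tested, 48 of the large and 30 of the small subunit. The other 6 include RPS10 with 0 counts, RPL10L with 9, RPL17 with 13, RPL26 with 16 and RPL36A with 62 over all 30 libraries. RPS10, RPL17, RPL26 and RPL36A have between 95.3% and 100% of their exon length inside the span of another gene on the same strand, mostly read-through genes such as RPS10-NUDT3 (2524 counts), RPL36A-HNRNPH2 (508 counts) and RPL17-C18orf32 (363 counts). For these genes, low expression and loss of reads in counting cannot be told apart. RPL22, the next member by overlap that was tested at a low total, has 43.5% of its exon length inside another gene and 4811 counts, so its level is uncertain as well. RPL10L, a paralog of RPL10 known from testis, overlaps no gene on its strand and stayed at 0 to 2 counts per library.

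The starts of 10 members show the TOP tract that most of this family carries, and 2 paralogs among them are without it. Each window runs from 20 bases before the RefSeq start to the 10th base of the transcript, 5′ to 3′ on the gene's strand, and capitals mark the longest run of at least 5 C or T that begins with C within 10 bases of the start.
RPLP0: ggcacgcgcgggcgcgaggCCCTTCTCTCg
RPL12: cttgtccgcgcgatttccggCCTCTCggct
RPS13: ggcgtttccactctcgCTCTCCTTTCgttg
RPS21: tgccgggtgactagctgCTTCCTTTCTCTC
RPS3A: tcgcgcgactcccacttccgCCCTTTTggc
RPS3: cttccgcccgcgagccaCTTCCTTTCCTTT
RPL28: tcgcctcgcccctcgCCTTCCTCTTTCCgt
RPL22L1: gaccgcgcggccgtagCTTCCTCTCTgctc
RPL7L1: cgcgccggaagtgcggcgccgtagctagga
RPS27L: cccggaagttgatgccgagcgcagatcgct
On GRCh38.p14 these windows are chr12:120201102-120201131 (RPLP0, minus strand), chr9:127451397-127451426 (RPL12, minus), chr11:17077658-17077687 (RPS13, minus), chr20:62387083-62387112 (RPS21, plus), chr4:151099608-151099637 (RPS3A, plus), chr11:75399498-75399527 (RPS3, plus), chr19:55385912-55385941 (RPL28, plus), chr3:170870186-170870215 (RPL22L1, minus), chr6:42879596-42879625 (RPL7L1, plus) and chr15:63157468-63157497 (RPS27L, minus). A tract of at least 5 C or T with C at the start itself, read on the gene's strand only, was found in 43 of the 67 members with a RefSeq entry (64.2%) and in 4.07% of 35116 RefSeq promoters. Large and small subunit members carried it in 61.9% and 68.0% of matched genes, and 1 of 5 matched paralogs had it. The mitochondrial ribosomal proteins, which build the separate ribosome of mitochondria, had it in 7.25%. TOP mRNAs that encode no ribosomal protein had it in 7 of 11 matched genes (63.6%). Allowing the tract to begin within 10 bases on either side raised the members to 83.6% and all promoters to 33.5%. A match describes letters at an annotated start, which may not be the start used in these cells.

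In untreated WT cytosol the members together took 5.90%, 6.16% and 6.02% of each library's counts. Per kilobase of annotated canonical transcript, RPS18 was highest at 2119 ± 28.7 CPM per kb (SD, n = 3). Among the next were RPL7A at 1929 ± 39.2, RPL6 at 1865 ± 39.1 and RPLP0 at 1850 ± 43.3. The annotated length may not be that of the transcript made in these cells, so the order depends on the annotation. RPL7A, RPL6 and RPLP0 overlapped each other, while every library of RPS18 stood above every library of these 3. Of the stalk proteins, which recruit translation factors to the ribosome, RPLP0 was at 1850 CPM per kb. RPLP2 was at 738 ± 40.3 and RPLP1 at 280 ± 10.9. Over all libraries RPLP1 and RPLP2 had similar counts (78892 and 76951). Their gap on this scale follows annotated lengths of 1174 and 462 bases.

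Most paralogs were below the genes they resemble on the same per-kb scale, which rests on annotated lengths. RPL3, which reaches the peptidyl transferase centre, stood at 912 ± 15.6 CPM per kb, and its striated muscle paralog RPL3L at 0.140 ± 0.0445, from 2, 3 and 4 counts. RPS27 was at 1117 ± 31.6 and RPS27L at 13.3 ± 0.614. Their counts over all libraries were 85932 and 17258, with annotated lengths of 352 and 6110 bases. RPL39, a protein of the exit tunnel, was at 1611, 1669 and 1583, and RPL39L at 48.2 ± 1.09. RPL7 was at 856 ± 25.6 and RPL7L1, a factor in nucleolar ribosome assembly, at 188 ± 4.83 CPM per kb. Over all libraries RPL7 had 238596 counts and RPL7L1 254799, with annotated lengths of 1233 and 4499 bases. RPL22L1 at 22.3 ± 1.39 exceeded RPL22 at 5.97 ± 0.0639 CPM per kb. RPL26L1 at 88.1 ± 0.923 exceeded RPL26 at 0.184 ± 0.183 CPM per kb. The counting of RPL22 and RPL26 is doubtful, as given above.

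**Figure D1:**
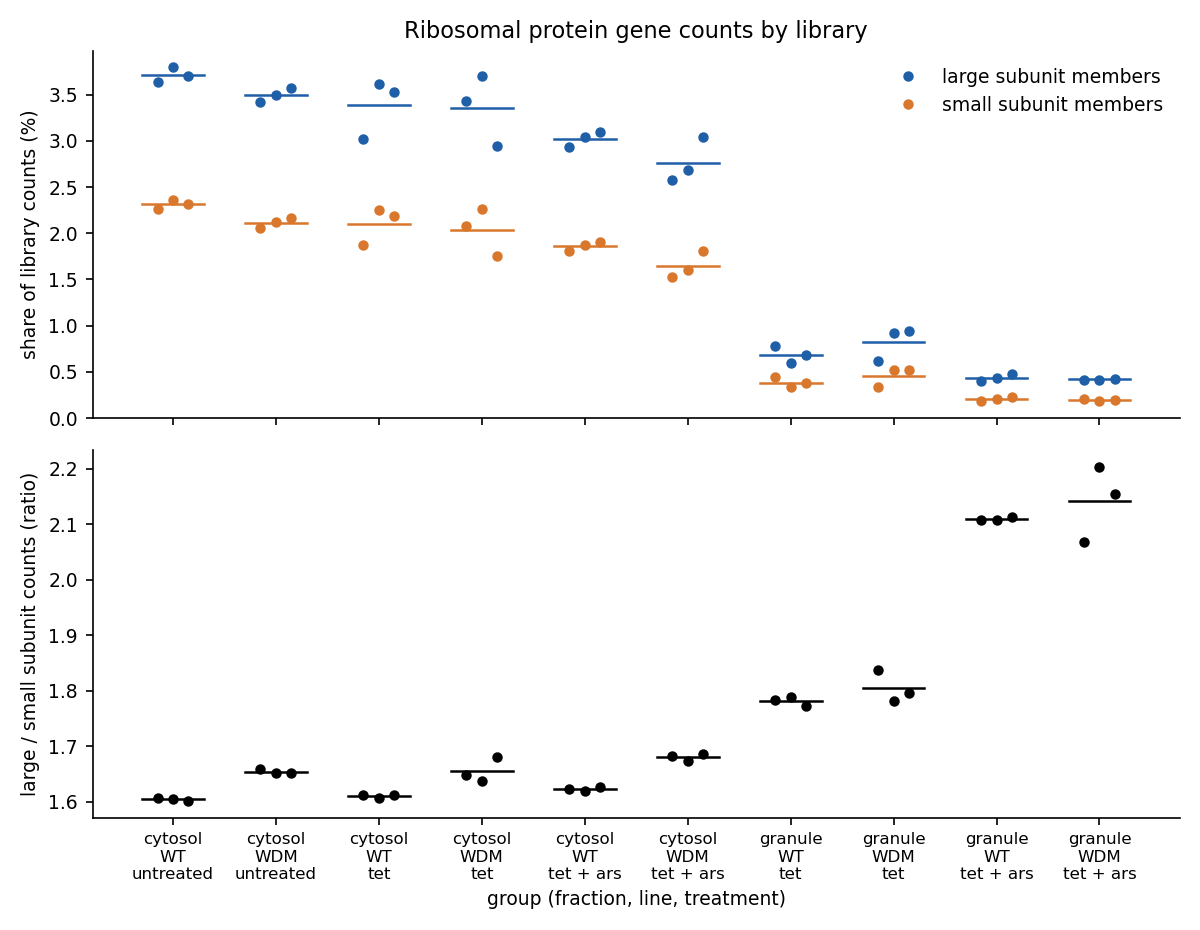
Share of library counts in percent from large (blue) and small (orange) subunit members, above, and the ratio of their summed counts, below, with 1 point per library and a bar at the mean of each group of 3. Cytosol shares sit above every granule share, and the ratio is highest in the granule libraries of arsenite-treated cells (2.07 to 2.20).

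Counts of ribosomal protein genes were scarce in the granule fraction. With tetracycline alone the members took 1.22%, 0.926% and 1.06% of counts in WT granule libraries, against 4.90%, 5.87% and 5.71% in the matching cytosol. In WDM the granule shares were 0.947%, 1.44% and 1.47%, against 5.52%, 5.97% and 4.70%. After arsenite the granule shares were 0.585%, 0.632% and 0.706% in WT and 0.618%, 0.601% and 0.625% in WDM, against 4.75%, 4.91% and 5.00% and 4.10%, 4.28% and 4.85% in cytosol. No granule library overlapped any cytosol library, and the ratio of mean shares rose from 5.14-fold to 7.63-fold in WT and from 4.20-fold to 7.18-fold in WDM with arsenite. Granule WDM tetracycline replicate 1 was low beside its 2 partners, and it also stood apart in mitochondrial genome counts (0.119% of counts against 0.341% and 0.420%). Without it, a choice made after seeing the data, the WDM ratio of mean shares with tetracycline was 3.71-fold.

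Tested member by member with edgeR's quasi-likelihood method over 18141 genes, depletion covered nearly the whole family. With tetracycline alone, 76 of 78 members were lower in the granule fraction than in cytosol in WT, where 36.2% of all genes were lower, and 76 of 78 in WDM, where 35.3% were lower. After arsenite all 78 were lower in WT (35.5% of all genes lower) and all 78 in WDM (35.7%). No member was higher in any of the 4 comparisons, where 39.5% and 35.8% of all genes were higher in WT and WDM with tetracycline, and 35% and 36.3% with arsenite. The members' median log2 fold change was -2.47 in WT and -2.17 in WDM with tetracycline, and -3.08 and -3.06 after arsenite, while the median over all genes tested was between 0.02 and 0.07. Without granule WDM tetracycline replicate 1 the WDM median with tetracycline was -1.95, with 76 members lower. The exceptions with tetracycline were RPL22 (0.05 in WT and -0.15 in WDM) and RPL3L (0.35 and -0.04). Sequencing shares are relative within a fraction, so fewer copies of these mRNAs and more copies of others cannot be told apart. The same holds for fewer cells and less RNA per cell.

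Members differed widely in how much of their signal was lost. RPS21, RPS13 and RPL12 were the most depleted over the 4 fraction comparisons, and all begin with the tract shown above. RPL12, at the base of the stalk, had 514, 536 and 528 CPM in WT arsenite cytosol and 25.8, 25.5 and 33.7 in the matching granule libraries. The same gene had 419, 447 and 525 CPM in WDM arsenite cytosol against 23.9, 26.3 and 27.6 in granule libraries. Its log2 fold change was -4.21 ± 0.19 (SE) in WT and -4.16 ± 0.19 in WDM (edgeR Benjamini-Hochberg adjusted p 2.8e-16 and 3.4e-16).

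RPS13, a small subunit protein, was at 318, 329 and 337 CPM in WT arsenite cytosol and 20.9, 20.1 and 19.6 in granule. In WDM it was at 238, 288 and 301 against 14.2, 15.1 and 14.8 CPM. The granule libraries of each line were within a few CPM of each other and far from the cytosol, with log2 fold changes of -4.02 ± 0.20 and -4.23 ± 0.20 (edgeR adjusted p 1.2e-15 and 5.9e-16). RPS21 gave -4.17 ± 0.25 and -4.02 ± 0.25 after arsenite. RPL26L1 had the largest depletion in WT with tetracycline alone, at -3.57 ± 0.22.

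At the other end stood RPL3L, RPL22, RPL7L1, RPL3, RPL37A and RPL28. RPL28 and RPL37A were picked out after their values were seen. RPL3 had 1004, 1174 and 1144 CPM in WT tetracycline cytosol and 430, 375 and 352 in granule, a log2 fold change of -1.52 ± 0.17. The groups did not overlap. After arsenite the RPL3 fold change between fractions was -1.95 ± 0.17 in WT and -1.83 ± 0.17 in WDM, above the family's median. RPL7L1 lay at -1.60, -1.29, -1.27 and -1.29 (SE 0.18 each) in the fraction comparisons of WT and WDM with tetracycline and of WT and WDM with arsenite. RPL28, a large subunit protein, lay at -1.85 ± 0.16, -1.85 ± 0.16, -1.73 ± 0.16 and -1.57 ± 0.15 in the same order. RPL3L was called after arsenite in both lines (-0.70 ± 0.32 in WDM, edgeR adjusted p 0.047), and the WDM call was lost in 8 of 13 other settings.

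The order of the members was similar in both lines. They share no library, but the labels give no batch, so their independence is not known. Over the 78 members the WT and WDM fold changes between fractions had Pearson's r of 0.966 with tetracycline and 0.972 with arsenite, a description over genes that share libraries and depth. Members with longer annotated transcripts were less depleted. The annotated length may not be that of the transcript made in these cells. The canonical transcripts of tested members have a median of 933 bases (1049 for the large and 759.5 for the small subunit), against 2748 bases over all genes tested. Spearman's rho between transcript length and the granule fold change was 0.45 in WT and 0.47 in WDM with tetracycline, and 0.49 and 0.46 with arsenite, over the 78 members, and between 0.21 and 0.35 over 18092 genes. RPL7L1 (4499 bases), RPL28 (4209) and RPL37A (2992) are long for the family, and RPS21 (358), RPS13 (527) and RPL12 (634) are short. RPS27L, with 6110 bases, and RPL3, with 1296, do not follow that order. In the 4 fraction comparisons, the 40 members with a tract at the annotated start and the 22 without one had close medians. With tetracycline they were -2.51 and -2.47 in WT and -2.18 in both sets in WDM. With arsenite they were -3.13 and -3.07 in WT and -3.06 and -3.11 in WDM. Some of the 22, such as RPL4, RPL9 and RPS28, have a tract within 10 bases of that start. The split therefore cannot separate members with and without a TOP tract.

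**Figure D2:**
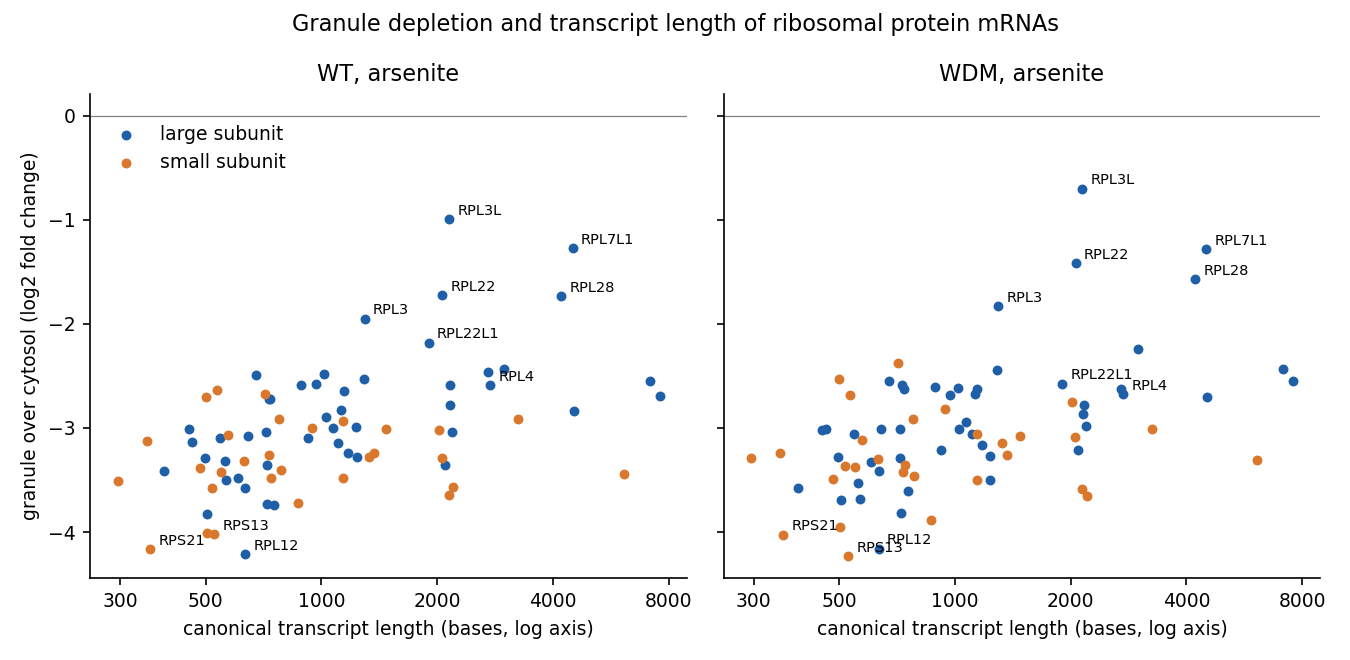
Log2 fold change of granule over cytosol after arsenite, by canonical transcript length in bases on a log axis, for each of 78 members (large subunit blue, small subunit orange), in WT on the left and WDM on the right. Members with short annotated transcripts, such as RPS21, RPS13 and RPL12, lie near -4, and RPL7L1 and RPL28 lie above -2.

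Counts of the large subunit outweighed those of the small subunit by more in the granule fraction than in cytosol. In untreated WT cytosol the ratio of summed large to small subunit counts was 1.60 ± 0.00243 (SD, n = 3), from 1.602 to 1.606, and in all cytosol groups the mean lay between 1.60 and 1.68. In WT granule libraries it was 1.78, 1.79 and 1.77 with tetracycline and 2.11, 2.11 and 2.11 after arsenite. In WDM it was 1.84, 1.78 and 1.80 with tetracycline and 2.07, 2.20 and 2.15 after arsenite. Each of the 12 granule libraries had a higher ratio than each of the 18 cytosol libraries, and the arsenite libraries did not overlap the tetracycline libraries of the granule fraction. Without granule WDM tetracycline replicate 1 that group's mean was 1.79. In cytosol the WDM libraries (1.64 to 1.69) lay above the WT libraries (1.60 to 1.63) without overlap.

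The ratio is a sum, which a few abundant members can carry. Leaving out RPL4, the member with the most counts, gave 1.92 ± 0.00344 (SD, n = 3) for WT arsenite granules against 1.60 ± 0.00119 with tetracycline. Leaving out the paralogs brought these groups closer, to 1.95 ± 0.0118 against 1.70 ± 0.00619, beside 2.11 and 1.78 with all members. The ratio of median members instead of sums was 1.111, 1.039 and 1.097 in WT arsenite granules against 1.041, 1.025 and 1.048 with tetracycline, so those groups overlapped. In WDM it was 1.117, 1.267 and 1.042 against 1.011, 0.981 and 1.025, which did not overlap. By this measure the granule WDM tetracycline libraries overlapped WDM cytosol, where untreated libraries reached 1.000 and arsenite libraries 1.002. By member, the small subunit's median granule fold change was lower than the large subunit's in each of the 4 fraction comparisons: -2.58 against -2.42 in WT and -2.30 against -2.10 in WDM with tetracycline, then -3.31 against -2.94 and -3.29 against -2.96 with arsenite. No test was made of the difference between the subunits. Transcript length moves with it, as given above, and its part was not tested.

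Within the granule fraction, most ribosomal protein mRNAs were lower with arsenite. In WT, 64 of 78 members were lower with arsenite than with tetracycline alone and 0 higher, where 14.1% of all genes were lower and 16.5% higher. In WDM, 73 were lower, where 17.7% of all genes were, and 1, RPL3L, was higher, where 18.7% of all genes were. The median log2 fold change was -0.75 in WT and -1.20 in WDM, against -0.03 and 0.01 over all genes. Small subunit members fell further than large ones, with medians of -0.89 (28 of 30 lower) and -0.66 (36 of 48) in WT, and of -1.36 (28 of 30) and -1.09 (45 of 48) in WDM. Members with a tract at the annotated start had medians of -0.79 in WT and -1.21 in WDM. Those without one there had -0.63 and -1.04, a split with the limit given above. Leaving out single libraries gave between 53 and 64 calls in WT and between 72 and 76 in WDM, RPL3L included. Without granule WDM tetracycline replicate 1 the WDM median was -1.40, with 75 members lower and 1 higher.

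Small subunit proteins were among those that fell furthest. RPS3, which lines the mRNA entry channel, had 196, 179 and 181 CPM in WT granules with tetracycline and 66.5, 68.1 and 82.7 with arsenite. In WDM it had 174, 277 and 278 CPM and then 77.3, 73.7 and 73.9. Neither line's groups overlapped, and the log2 fold changes were -1.35 ± 0.17 and -1.70 ± 0.17 (edgeR adjusted p 3.7e-06 and 1.1e-07). RPS3A fell in WDM from 148, 237 and 239 CPM to 55.0, 61.0 and 58.2, a log2 fold change of -1.84 ± 0.18 and the largest fall in that line. RPL12 followed at -1.77 ± 0.19 and RPL9 at -1.74 ± 0.19, both large subunit proteins.

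RPL22, a large subunit protein that binds RNA, fell from 10.8, 12.6 and 21.5 CPM to 2.81, 4.74 and 3.95 in WT granules, a log2 fold change of -1.99 ± 0.25. In WDM it fell from 11.8, 11.7 and 11.5 CPM to 5.63, 4.46 and 3.29, a change of -1.39 ± 0.25. Its cytosol level was 14.1, 15.1 and 16.5 CPM in WT with tetracycline and 11.4, 12.7 and 12.2 with arsenite, a difference that was not called (-0.33 ± 0.16, edgeR adjusted p 0.12). Between fractions RPL22 was not called with tetracycline in either line, and with arsenite it was lower in granules by test, at -1.72 ± 0.25 in WT and -1.41 ± 0.24 in WDM. RPL39L gave -1.29 ± 0.21 in WT granules and -1.43 ± 0.21 in WDM.

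Members picked for their roles were mostly called as well. RPS6, the small subunit protein phosphorylated downstream of growth signals, went from 263, 189 and 204 CPM to 111, 103 and 121 in WT (log2 fold change -0.96 ± 0.18) and fell by 1.43 ± 0.18 on the log2 scale in WDM. RPLP0 went from 381, 323 and 297 CPM to 171, 170 and 206 in WT (-0.87 ± 0.18) and from 327, 546 and 556 to 172, 167 and 210 in WDM (-1.38 ± 0.19). RPLP1 was called in both lines (-0.97 ± 0.22 in WDM). RPLP2 was lower by test in WDM (-0.77 ± 0.21) and not in WT (-0.40 ± 0.21, edgeR adjusted p 0.15). RPL5 and RPL11, which carry 5S rRNA into the large subunit, gave -0.86 ± 0.17 and -0.24 ± 0.18 in WT, where only RPL5 was called, and -1.28 ± 0.17 and -0.89 ± 0.18 in WDM.

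Only 4 members were not called in WDM granules, namely RPS16 (-0.57), RPS15 (-0.37), RPL7L1 (-0.18) and RPL28 (0.22). RPL28 had 33.7, 26.8 and 34.2 CPM in WT granules with tetracycline and 28.1, 28.7 and 36.6 with arsenite, and 21.9, 32.8 and 32.8 against 29.0, 40.5 and 32.9 in WDM, so the groups overlapped in both lines.

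**Figure D3:**
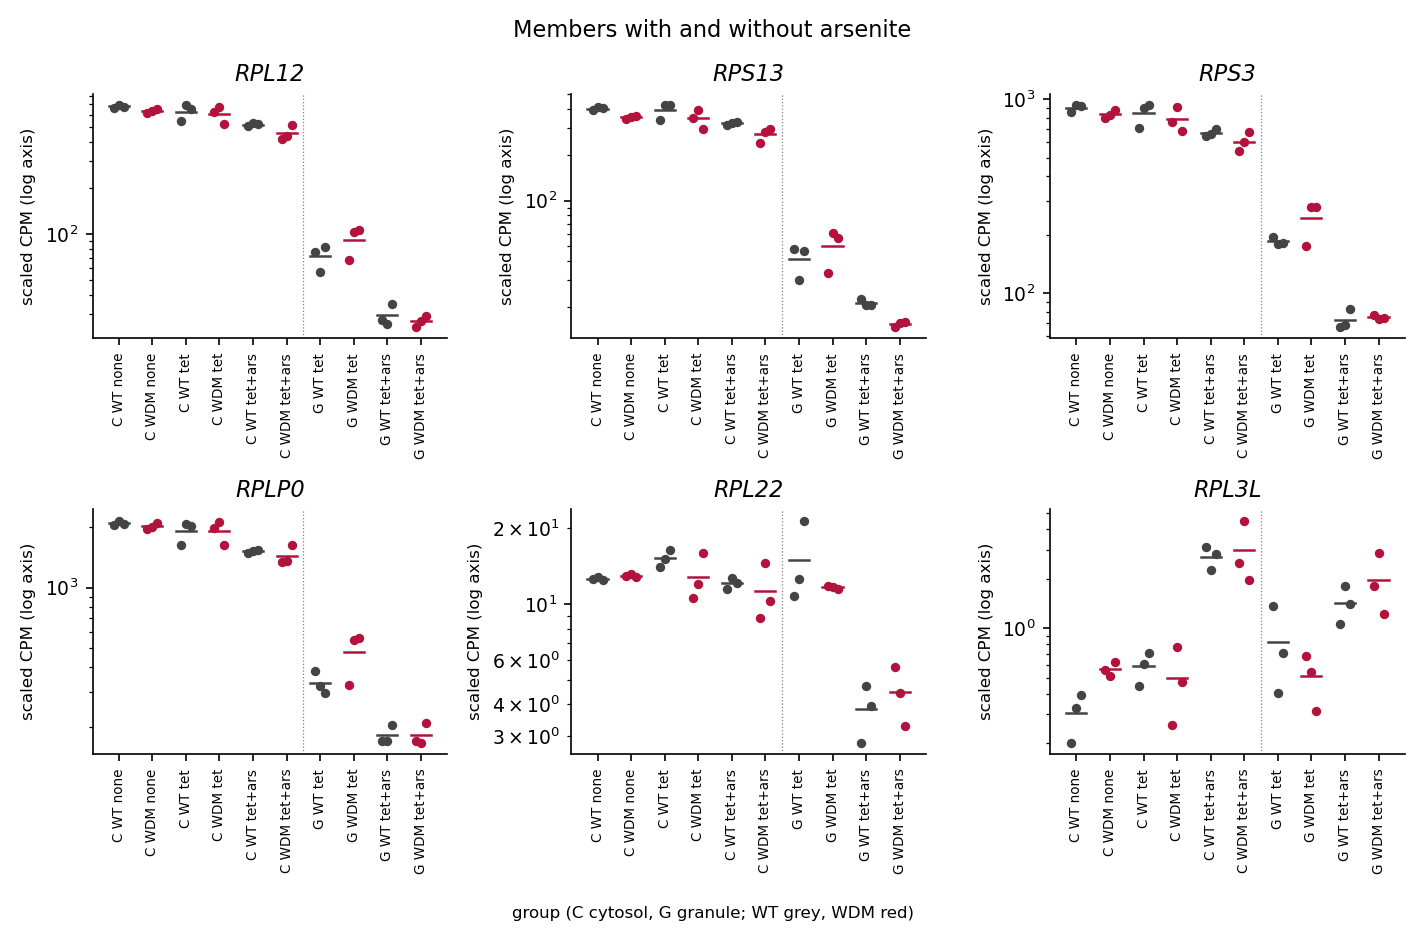
Scaled CPM on a log axis of 6 members in each library, by group (C cytosol, G granule), with WT in grey and WDM in red and a bar at each group's mean of 3. Cytosol and granule libraries were scaled separately, so levels should be compared within a fraction. RPL12, RPS13, RPS3, RPLP0 and RPL22 are lower in granule libraries with arsenite, and RPL3L is higher in cytosol with arsenite.

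The tests of fraction by arsenite asked whether arsenite changed the granule level more than the cytosol level. In WT, 32 of 78 members were lower by this test and 0 higher, where 19.4% of all genes were lower and 12% higher. In WDM, 60 were lower and 0 higher, where 16.5% and 7.66% of all genes were. The member medians were -0.59 and -0.87, beside -0.21 and -0.17 over all genes. Members with a tract at the annotated start had medians of -0.59 in WT and -0.90 in WDM. Those without one there had -0.43 and -0.79, again a split by annotated start only. Without granule WDM tetracycline replicate 1 there were 74 calls in WDM, all lower (15.4% of all genes lower), with a median of -1.11. By subunit, 14 of 48 large (29.2%) and 18 of 30 small members (60.0%) were called in WT, and 34 (70.8%) and 26 (86.7%) in WDM. The WT count depended on single libraries, which gave 15 without cytosol WT tetracycline replicate 1 and 18, 16 and 17 without cytosol WT arsenite replicate 1, 2 and 3 in turn. It was 17 and 16 without granule WT tetracycline replicate 1 and 3, and 17 without granule WT arsenite replicate 1. It was 14 when low-count genes were kept in the fit. Shares of all genes called in these WT settings are not given here.

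By smallest p in WT the members were RPL22 (-1.77 ± 0.34), RPL39L (-1.19 ± 0.23), RPS29 (-1.04 ± 0.20), RPS12 (-1.07 ± 0.22) and RPS3 (-1.11 ± 0.23). In WDM they were RPS12 (-1.37 ± 0.22), RPS3 (-1.41 ± 0.23), RPL12 (-1.46 ± 0.24), RPS3A (-1.49 ± 0.26) and RPS29 (-1.16 ± 0.20). RPS3, RPS12 and RPS29, all of the small subunit, were on both lists. RPL7L1 (0.33 ± 0.25 and 0.01 ± 0.25) and RPL28 (0.11 ± 0.22 and 0.28 ± 0.22) were not called in either line. Pseudogenes of ribosomal proteins gave 3.28 to 3.76 counts per 100 member counts in granule libraries with arsenite, against 2.67 to 3.12 in granule libraries with tetracycline and 2.36 to 2.59 in cytosol. As a share of all counts they were lower in granule libraries with arsenite (0.0206% to 0.0232%) than with tetracycline (0.0277% to 0.0399%). Their part in these results was not tested.

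In cytosol the members were also lower after arsenite, with smaller fold changes. In WT, 55 of 78 were lower and 1 higher than with tetracycline alone, where 15.4% of all genes were lower and 13.7% higher. In WDM, 70 were lower and 1 higher, where 14.8% and 14.1% of all genes were. The 1 higher was RPL3L in both lines, which entered the cytosol fit only through the arsenite libraries, so its call supports nothing. The median was -0.31 in WT and -0.38 in WDM, and large and small subunits were close (-0.31 and -0.32 in WT, -0.37 and -0.40 in WDM). The arsenite libraries lay wholly below the tetracycline libraries for 60 members in WT (20.2% of all genes) and 38 in WDM (17.3%). RPLP0 had 1636, 2073 and 2028 CPM in WT with tetracycline and 1494, 1520 and 1537 with arsenite, and 1996, 2123 and 1626 against 1337, 1359 and 1637 in WDM. WT groups did not overlap and WDM groups did, through cytosol WDM tetracycline replicate 3 and arsenite replicate 3. The changes were -0.33 ± 0.11 and -0.41 ± 0.11 (edgeR adjusted p 0.026 and 0.0091).

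How many members passed here depended on the libraries. The counts below are without the share of all genes called in each setting. They cannot tell a change in the members from one in all calls. Cytosol WT tetracycline replicate 1 had a lower member share (4.90%) than its partners (5.87% and 5.71%), and cytosol WDM tetracycline replicate 3 (4.70%) than its own (5.52% and 5.97%). With RPL3L counted in, 56 members were called in WT and 71 in WDM. Without WT tetracycline replicate 1 the WT count was 74, and without replicate 2 or 3 it was 1, RPL3L itself. Without WT arsenite replicate 1 or 2 it was 4, and without replicate 3 it was 22. In WDM it was 11 without tetracycline replicate 2 and 25 without arsenite replicate 1. Scaling by library size alone left 5 calls in WT and fitting only the groups compared left 9 in WT and 4 in WDM. The medians stayed between -0.41 and -0.17 in WT and between -0.49 and -0.28 in WDM in all these settings. With library size alone the WT median of all genes moved from -0.02 to 0.11.

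Against untreated cells, where the libraries were closer to each other, 70 of 78 members were lower with tetracycline and arsenite in WT (17.1% of all genes lower) and 72 in WDM (20%), and 1, RPL3L again, was higher in each (15.2% and 19% of all genes higher). The medians were -0.39 and -0.41. RPL39L was furthest down, at -0.74 ± 0.12 in WT and -0.76 ± 0.12 in WDM. RPL22L1 did not move with the family in cytosol: it was at 36.9, 49.4 and 44.5 CPM with tetracycline and 41.4, 45.9 and 43.0 with arsenite in WT, a log2 fold change of 0.00 ± 0.12. In WDM its change was 0.01 ± 0.12.

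RPL3L was the 1 member with higher counts and a call in that direction with arsenite. In cytosol none of its 12 libraries without arsenite reached the filter's minimum and all 6 with arsenite did, so its cytosol values are a description, with no test. In WT cytosol it had 2, 3 and 4 counts untreated, 6, 7 and 8 with tetracycline and 40, 30 and 38 with arsenite, or 0.447, 0.604 and 0.705 CPM with tetracycline and 3.09, 2.26 and 2.80 CPM with arsenite. In WDM it had 8, 7 and 7 counts untreated, 2, 8 and 9 with tetracycline and 41, 77 and 27 with arsenite. In cytosol no arsenite library overlapped a library without arsenite, and the log2 fold changes against tetracycline were 2.21 ± 0.35 in WT and 2.54 ± 0.35 in WDM. In granules, where 4 of 6 libraries without arsenite reached the minimum, it rose in WDM by 1.97 ± 0.42 on the log2 scale, from 7, 8 and 5 counts to 44, 69 and 34. The change of 0.97 ± 0.41 in WT granules was not called (edgeR adjusted p 0.074). These are small counts, at 9 or fewer in every cytosol library without arsenite. RPL3L lies on chromosome 16, at 1943974 to 1957606 on the minus strand of GRCh38, and its start is 4451 bases downstream of the end of RPS2 on the same strand. RPS2, a protein of the small subunit, fell by 0.29 ± 0.10 in WT and 0.37 ± 0.10 in WDM on the log2 scale. Whether reads beyond RPS2 entered the RPL3L count was not tested.

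**Figure D4:**
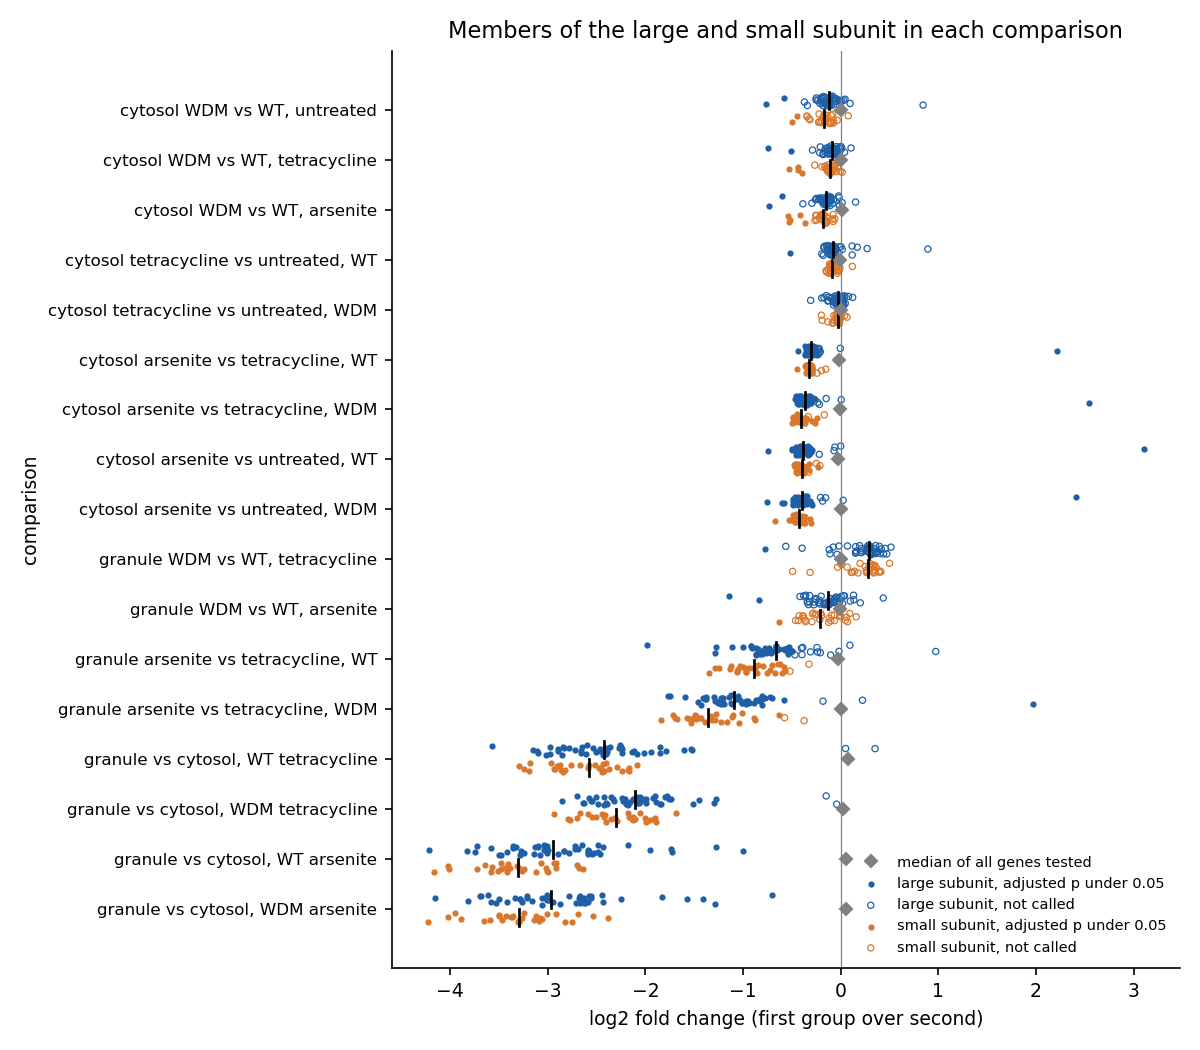
Log2 fold change of each tested member in 17 comparisons of a pair of groups, large subunit in blue and small subunit in orange, filled where called at an adjusted p under 0.05. Black bars are the subunit medians and grey diamonds the medians of all genes tested. In the 4 comparisons of granule with cytosol the subunit medians run from -2.10 to -3.31, and only RPL22 and RPL3L in WT with tetracycline lie right of 0.

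Few members were called with tetracycline by itself. The members' share of counts was 4.90% to 5.87% in WT tetracycline cytosol, below the 5.90% to 6.16% of untreated WT libraries. In WDM the ranges overlapped (4.70% to 5.97% with tetracycline and 5.48% to 5.74% untreated). Over the 72 tested members that are not paralogs, the median log2 fold change was -0.09 in WT and -0.03 in WDM. In WT, 1 of 78 members was called lower and 0 higher, where 2.39% of all genes were lower and 2.93% higher. In WDM none was called in either direction by edgeR at an adjusted p under 0.05, where 3.23% of all genes were lower and 3.07% higher, with 1 member at an unadjusted p under 0.05 and 0 called by DESeq2. The WT member was RPL39L, at 35.8, 35.4 and 36.8 CPM untreated and 20.1, 30.0 and 25.4 with tetracycline, a log2 fold change of -0.52 ± 0.12 (edgeR adjusted p 0.019). Its groups did not overlap, but the call was lost in 5 of 13 other settings, among them leaving out any 1 of the untreated WT libraries or WT tetracycline replicate 3. In WDM 1 member was called without tetracycline replicate 2. The difference between lines in the tetracycline effect was called for no member by edgeR (0.018% of all genes called), with 0 at an unadjusted p under 0.05 and 0 by DESeq2.

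The WDM line had slightly lower member levels in cytosol than the WT line. With no treatment 4 of 78 members were lower in WDM and 0 higher, where 5.6% of all genes were lower and 4.19% higher. With tetracycline 6 were lower (6.84% of all genes lower) and 0 higher (5.8%). With arsenite 7 were lower (5.37%) and 0 higher (4.98%). Shares of this size are near those of all genes. For 52 members every untreated WDM library lay below every WT library (21.7% of all genes), as for 4 with tetracycline (11.5%) and 30 with arsenite (13.9%). The medians were -0.14, -0.10 and -0.16, with 72, 72 and 76 of 78 members below 0, beside 0.01, 0.00 and 0.01 over all genes. When only the untreated groups entered the fit 45 members were called lower (18.5% of all genes lower), and with the tetracycline groups alone 1 was (3.01%). Without cytosol WT tetracycline replicate 1 there were 13 calls, and without WDM tetracycline replicate 3 there were 3, with a median of 0.00.

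Among called members RPL22L1 differed most between the lines in each comparison. It had 46.2, 41.4 and 42.6 CPM in untreated WT cytosol and 26.5, 26.4 and 23.8 in WDM. Its levels in arsenite granules were 12.9, 9.02 and 8.85 CPM for WT and 4.11, 5.32 and 4.41 for WDM. No library overlapped in either pair of groups. Its log2 differences, WDM minus WT, were -0.76 ± 0.12, -0.75 ± 0.12 and -0.74 ± 0.12 in cytosol without treatment, with tetracycline and with arsenite, and -0.77 ± 0.21 and -1.14 ± 0.21 in granules (edgeR adjusted p 0.0002, 0.00019, 0.00017, 0.029 and 0.00053). The granule difference with tetracycline lost its call in 5 of 13 other settings. RPL22L1 lies on chromosome 3, at 170864875 to 170870208.

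RPL35A, a large subunit protein also on chromosome 3 (197950190 to 197956610), was second without treatment and with arsenite. It had 674, 695 and 680 CPM in untreated WT cytosol and 445, 451 and 470 in WDM, with log2 differences of -0.58 ± 0.11, -0.51 ± 0.11 and -0.60 ± 0.11 in the 3 cytosol comparisons. RPS15A and RPS15, both of the small subunit, gave -0.50 ± 0.11 and -0.45 ± 0.09 untreated. RPS27L was lower with tetracycline (-0.53 ± 0.12) and arsenite (-0.42 ± 0.12), and lost these calls in 2 and 5 of 13 other settings. RPS21 was lower in both as well (-0.40 ± 0.11 and -0.52 ± 0.11). RPS27A, which encodes a ubiquitin fused to a ribosomal protein, passed in the arsenite groups (-0.36 ± 0.11), and lost that call in 5 of 13 other settings.

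Genes near several of these members moved the same way. In untreated cytosol the 45 tested genes within 5 Mb of RPL35A had a median WDM minus WT difference of -0.51, and 41 were below 0. For RPS15A on chromosome 16 it was -0.44 over 86 genes, for RPL22L1 -0.37 over 27 genes and for RPS15 on chromosome 19 -0.35 over 158 genes. RPS27L on chromosome 15 had neighbours at 0.08, over 83 genes. The part of the chromosomal region in these differences was not tested.

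**Figure D5:**
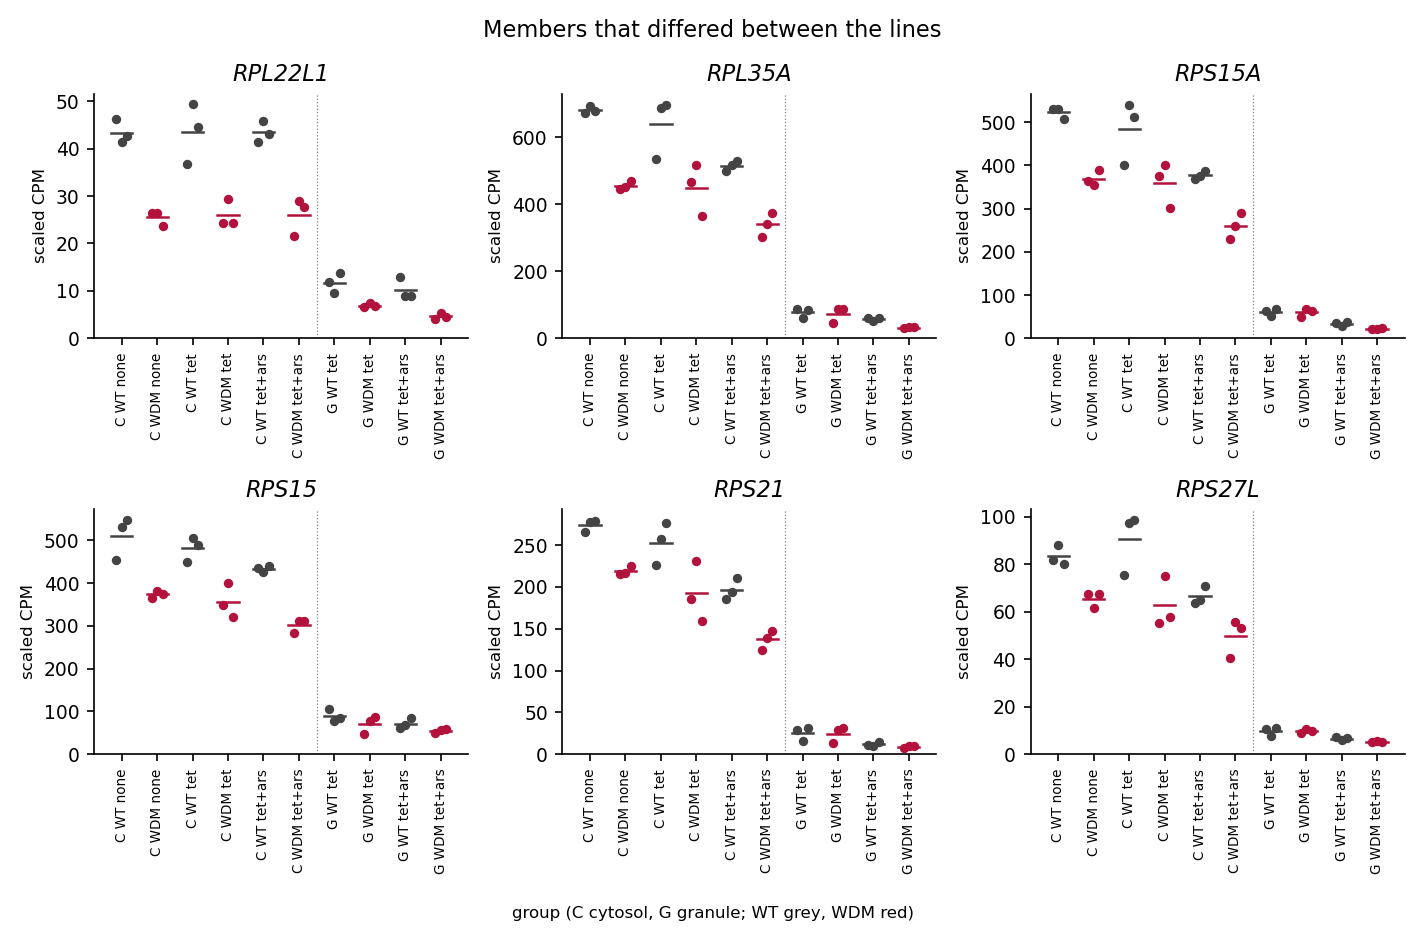
Scaled CPM of 6 members that differed between the lines, in each library by group (C cytosol, G granule), WT in grey and WDM in red, with a bar at each group's mean of 3. Cytosol and granule libraries were scaled separately. RPL22L1 is lower in WDM in all 5 pairs of groups, and its levels do not follow arsenite in cytosol.

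In granules with tetracycline the members lay higher in WDM than in WT, with a median of 0.29 and 11 of 78 below 0, but only RPL22L1 was called, lower (2.95% of all genes lower), and 0 were higher (2.6%). Without granule WDM tetracycline replicate 1, the library that stood apart, 25 members were called higher (3.58% of all genes higher) and 0 lower, with a median of 0.49, and without granule WT tetracycline replicate 1 or 3, or WDM tetracycline replicate 2 or 3, 0 were called. In granules with arsenite 3 members, RPL22L1, RPL35A (-0.83 ± 0.20) and RPS15A (-0.63 ± 0.17), were lower in WDM (3.84% of all genes lower) and 0 higher (4.11%), and without granule WT arsenite replicate 1 there was 1 call. For 30 members the WDM arsenite libraries lay wholly below the WT ones (14.3% of all genes). The falls with arsenite were steeper in WDM granules, by a median of -0.41 for the interaction, yet edgeR called no member for it and no gene at all (0% of all genes), with 20 members at an unadjusted p under 0.05 and 0 called by DESeq2. Without granule WDM tetracycline replicate 1 that median was -0.63, with 0 called. In cytosol the same interaction called no member and no gene (0% of all genes), with 0 members at an unadjusted p under 0.05 and 0 by DESeq2. The difference between lines in the granule to cytosol ratio was called for no member by edgeR with tetracycline (median 0.38, or 0.61 without granule WDM tetracycline replicate 1, 5 members at an unadjusted p under 0.05, 0 by DESeq2, 0.00551% of all genes called) or with arsenite (median 0.04, 0 at an unadjusted p under 0.05, 0 by DESeq2, 0.00551% of all genes called).

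Other genes of translation were read beside the members. Of 15 tested TOP mRNAs that encode no ribosomal protein, such as elongation factors, 14 were lower in granules in WT with arsenite (median -1.74). Of all genes 35.5% were lower there. Within granules 10 fell with arsenite in each line (medians -0.62 in WT and -0.83 in WDM), where 14.1% and 17.7% of all genes fell. The mitochondrial ribosomal proteins mostly lack the tract. In WT with arsenite 68 of 70 tested were lower in granules than in cytosol (median -2.17), beside 35.5% of all genes. Within WT granules 21 of 69 fell and 3 rose with arsenite (median -0.24), beside 14.1% of all genes lower and 16.5% higher. In WDM granules 40 of 69 fell and 1 rose (median -0.54), beside 17.7% lower and 18.7% higher. The 29 tested factors of ribosome biogenesis, which work in the nucleolus, were split. In WT arsenite granules 19 were lower and 7 higher than in cytosol (median -0.62), beside 35.5% and 35% of all genes. With arsenite 4 (13.8%) were lower and 5 (17.2%) higher in WT granules. These WT shares are near the 14.1% and 16.5% of all genes. In WDM granules 24.1% of the 29 were lower and 17.2% higher with arsenite, beside 17.7% and 18.7% of all genes.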

How the data were processed

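The authors deposited one table of raw counts, with a row for each gene and a column for each library. Per the submitters' processing notes, the tools named are Trimmomatic, STAR, Picard and featureCounts, with the GRCh38 build. Their versions and settings, and the handling of strand and of overlapping genes, are not given in the sources used here. Libraries were stranded and rRNA-depleted, per the labels' protocols.

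Of 60664 gene identifiers, 60463 were found in GENCODE release 44, and 82 of 84 members had identical coordinates there. edgeR 4.0.16 (R 4.3.3) was fitted separately to the 18 cytosol libraries (16670 genes), the 12 granule libraries (18366 genes) and the 24 libraries of tetracycline-treated cells (18141 genes, for comparisons between fractions). The filter was filterByExpr, with a minimum count of 10 and a minimum total of 15, and TMM factors scaled the libraries. A group-means model with robust quasi-likelihood F-tests was used for 17 comparisons of a pair of groups and 7 interactions. Each comparison's p-values were given Benjamini-Hochberg adjustment across every gene in its fit, and calls are those with an adjusted p below 0.05. CPM values are scaled by the TMM factors of the fraction's fit, or of the 24-library fit for comparisons between fractions, and shares of counts are unscaled. DESeq2 1.42.0 and the other settings are given in the closing section. Scripts were tested on simulated data.

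Totals of 5906167 to 27419145 counts set the precision. Chi-square per degree of freedom between replicate libraries was 1.63 or more, so no library looked like a repeat of another. The labels give no batch. Deviations from group means were correlated between libraries with the same replicate number. Within a fraction 1 of 21 pairs of groups had every such correlation above 0.1, granule WDM tetracycline and arsenite (0.101 to 0.480). Between fractions 2 of 16 had, granule WDM arsenite with cytosol WDM arsenite (0.280 to 0.552) and granule WDM tetracycline with cytosol WDM arsenite (0.113 to 0.324). Any pairing here is read from the data, not the labels, and the main model did not use it. With the replicate number as a block, the count of calls stayed at 74 for granule WDM, arsenite against tetracycline. It stayed at 78 for granule against cytosol, WDM arsenite. Granule WDM tetracycline was not compared with cytosol WDM arsenite. Python 3.11.15 with pandas 2.3.3, numpy 2.4.6, scipy 1.17.1 and matplotlib 3.10.9 made the tables and figures. Promoter windows came from RefSeq, build GRCh38.p14, in which 67 of 84 members matched by symbol.

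Named members were, in each comparison, up to 3 higher and 3 lower called members with non-overlapping groups, by largest change; members called against the majority; members fixed by role and the paralogs with their parents; up to 5 called members by smallest p in each interaction; and members with few counts. Members named for a high level, a place in the order of depletion or a missing call were chosen after their values were seen. The members and lists were chosen with earlier results of these data known. Some members and list genes are not reported here.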

Additional observations from a re-analysis of the deposited data

Results flagged for a closer look

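Ribosomal protein genes changed differently with arsenite in the granule fraction and in cytosol, by edgeR's interaction test of fraction by arsenite. In WT 32 members and in WDM 60 members were called, all lower, where 19.4% and 16.5% of all genes were lower. Without single libraries the counts were 15 to 36 in WT, the lowest without cytosol WT tetracycline replicate 1, and 40 to 74 in WDM. In WT the 5 with the smallest p were RPL22 (-1.77), RPL39L (-1.19), RPS29 (-1.04), RPS12 (-1.07) and RPS3 (-1.11), as differences of log2 fold changes. In WDM they were RPS12 (-1.37), RPS3 (-1.41), RPL12 (-1.46), RPS3A (-1.49) and RPS29 (-1.16).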

How the results depend on the processing

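The settings run were RLE factors, library size alone, TMM factors without the ribosomal protein genes, no low-count filter, the replicate block, DESeq2, only the groups compared, and each library left out in turn. DESeq2 moved no count of called members by over 1.5 times. The depletion of ribosomal protein genes in the granule fraction kept its direction and nearly all calls in every setting run. Leaving out single libraries gave 76 to 76 calls with tetracycline in both lines and 77 to 78 with arsenite in both. Within granules the arsenite counts were 53 to 64 in WT and 72 to 76 in WDM. Against untreated cytosol they were 53 to 69 in WT and 55 to 73 in WDM. Counts near the threshold moved more, and the cause was not tested. Counts in this section are without the share of all genes called in each setting. They cannot tell a change in the members from one in all calls. Of 258 named pairs of a member and a comparison, 193 kept their call in every setting, 65 lost it in at least 1 and 0 changed sign. The 193 include RPL3L in the cytosol comparisons of arsenite, which it entered only through the arsenite libraries. Its calls there support nothing.

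For WDM against WT in untreated cytosol there were 8 calls with library size alone and 45 with only the groups compared. With tetracycline there was 1 with only the groups compared, and 3 to 13 without single libraries. With arsenite there were 11 without the low-count filter, and 5 to 7 without single libraries. For tetracycline against untreated, WT had 0 with only the groups compared, and each line had 0 to 1 without single libraries. For arsenite against tetracycline in cytosol, WT had 5 with library size alone, 9 with only the groups compared and 1 to 74 without single libraries, and WDM had 4 with only the groups compared and 11 to 72 without single libraries. For granule WDM against WT the counts without single libraries were 0 to 25 with tetracycline and 1 to 3 with arsenite. For fraction by arsenite, WT had 14 without the low-count filter and 15 to 36 without single libraries, and WDM had 40 to 74.

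With the replicate number as a block, 10 members were called for WDM against WT in untreated cytosol, and no other count of calls moved by over 1.5 times.

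The ratio of large to small subunit counts depended on how it was formed. Groups follow in the order cytosol WT and WDM untreated, WT and WDM tetracycline, WT and WDM arsenite, then granule WT and WDM tetracycline, WT and WDM arsenite. Without the paralogs it was 1.567, 1.618, 1.568, 1.6145, 1.580, 1.636, 1.700, 1.728, 1.951 and 1.981. As a ratio of median members it was 0.852, 0.981, 0.856, 0.946, 0.883, 0.972, 1.038, 1.006, 1.082 and 1.142. Without RPL4, a choice made after seeing the data, it was 1.4785, 1.523, 1.484, 1.522, 1.497, 1.548, 1.604, 1.632, 1.922 and 1.959. Depth limits RPL3L and the 6 untested members, whose counts are near the floor.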
